A study of Mus musculus with 6 samples.

Results

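The nuclear RNA polymerase subunits are the gene products that build the 3 enzymes transcribing the nuclear genome. They were taken as the rows of the count table whose gene identifier begins with Polr1, Polr2 or Polr3 followed by a letter. This gave 28 genes of 23337, of which 5 are named for polymerase I, 13 for polymerase II and 10 for polymerase III. All 28 had at least 10 reads in 3 libraries and all 28 were tested. RNA came from primary sinusoidal endothelial cells, the fenestrated lining of liver capillaries, isolated from mice with immunomagnetic beads and plated on collagen IV. The cells were deprived of serum and either left unstretched (control replicates 2, 3 and 4) or stretched by 4% at 1 Hz on a Flexcell device (stretch replicates 1, 2 and 4). No genotype, strain, age or duration of stretch is given in the sources used here, and no label says whether the replicates were separate isolations, so p-values measure the spread between these libraries, which may be technical.

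Polymerase I makes the large ribosomal RNA precursor in the nucleolus, polymerase II makes messenger RNA, and polymerase III makes transfer RNA, 5S ribosomal RNA and other small RNAs. Each enzyme has a catalytic core of a largest and a second-largest subunit, an assembly platform resembling the bacterial alpha subunits, and a stalk that binds initiation factors. Some subunits serve more than 1 enzyme: Polr1c and Polr1d belong to I and III, and Polr2e, Polr2f, Polr2h, Polr2k and Polr2l belong to all 3. Ribosomal and transfer RNA synthesis is known to rise and fall with growth signals, mainly through initiation factors.

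Total gene counts lay between 48948948 and 68489956 per library, and the 28 genes together took 0.130% to 0.140% of them. Of 13 sinusoidal endothelial markers none was at 0, and their summed level ranged from 13141 to 14665 CPM across control libraries and from 11183 to 12743 CPM across stretch libraries (counts scaled by the TMM-adjusted library size), with 9 lower after stretch. The sum of 12 hepatocyte markers was 101 to 143 CPM in control, 990 CPM in stretch replicate 1 and 209 and 219 CPM in the other stretch libraries, and 11 of 12 were higher. Macrophage markers summed to 80.1 to 95.1 CPM in control libraries and to 114 to 159 CPM with stretch, with 9 of 11 tested higher. The 10 stellate and fibroblast markers summed to 109 to 124 CPM in control and to 86.1 to 142 CPM in stretch libraries, with 0 of 9 tested called. None of these marker genes was at 0 in all libraries. Calls are at an edgeR adjusted p under 0.05, which 21.4% of all genes tested met as higher and 22.6% as lower. In such bulk samples a change in the cells present and a change in RNA per cell cannot be told apart.

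Transcripts of polymerase I subunits were higher after stretch, those of polymerase II changed little and its catalytic subunit fell, and polymerase III changed in a few subunits. Of the 5 genes named for polymerase I, 5 rose, 0 fell and the median log2 fold change was 0.53. Among the 13 polymerase II genes 6 rose, 1 fell and 6 missed the threshold, with a median of 0.11, and of 10 polymerase III genes 3 rose, 1 fell and 6 did not pass, with a median of 0.17. Over all 14222 genes tested 44.0% were called, 21.4% higher and 22.6% lower, and the median was -0.01 (edgeR quasi-likelihood test, Benjamini-Hochberg adjusted p under 0.05). All 5 polymerase I genes were thus among the genes called higher, while the polymerase III share of 30.0% was near that of all genes. Part of the polymerase II share of 46.2% came from calls near the threshold. Without control replicate 2, control replicate 4 or stretch replicate 4 the count was 2 of 13. With those omissions 16.2%, 17.3% and 17.7% of all genes were called higher. The changes were mostly small. Of the 28 genes, 7 were called higher and had a rise of at least 1.2-fold (15.4% of all genes). For 4 of the 28 genes the call came with at least 1.5-fold (6.16% of all genes), and for 1, Polr3d, with at least 2-fold (2.46%). Group CPM ranges did not overlap for 19 of the 28 genes, against 55.9% of all genes, with 17 higher (26.7% of all genes) and 2 lower (29.2%). In the authors' deposited table, which lists 23336 genes, 12 of the 28 had an FDR under 0.05 (10 higher, 2 lower), against 24.5% of the genes there. That table was not limited to the 14222 genes tested here, and only 18556 genes had any read. The 28 genes all had reads enough to be tested, so 24.5% is a low baseline for them. When the library total alone was used as scaling, 8 of the 28 rose and 3 fell, against 14.7% of all genes called higher, and the polymerase II count became 1 higher and 2 lower while all 5 polymerase I genes were still called higher. The median log2 fold change of all genes was then -0.11.

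**Figure D1:**
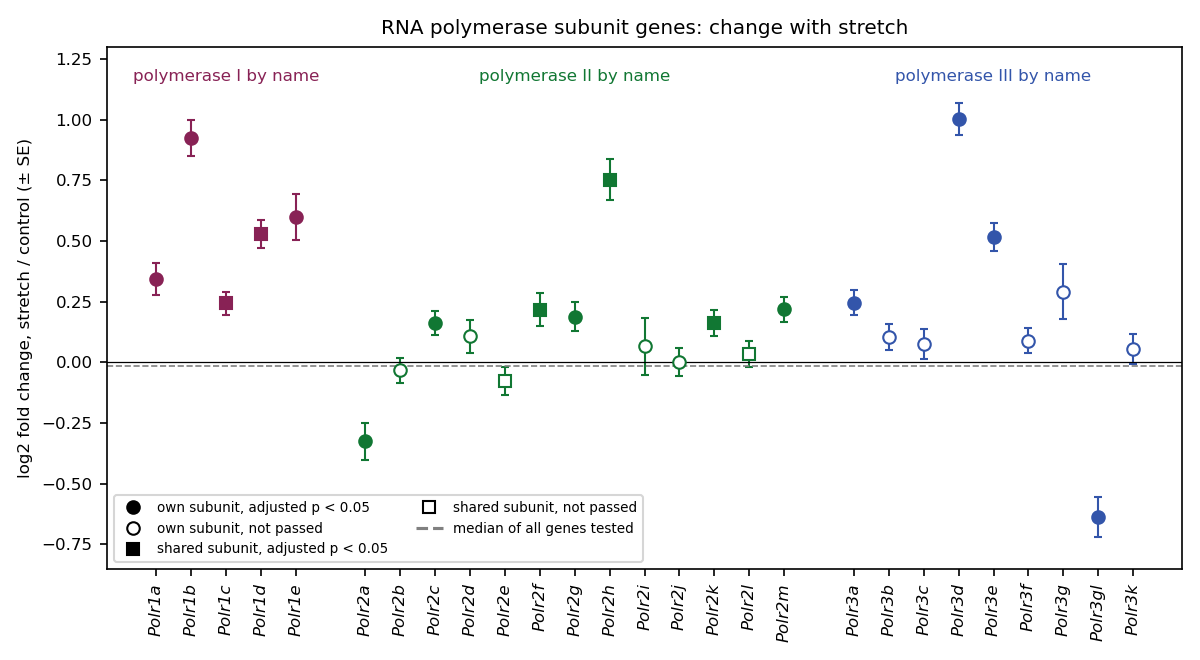
Log2 fold change of stretch over control with its SE (vertical axis) for 27 of the 28 subunit genes, grouped by the enzyme they are named for; filled symbols passed an adjusted p of 0.05, squares are subunits of more than 1 enzyme, and the dashed line is the median of all genes tested. All 5 polymerase I genes are filled and above 0, and the 2 filled symbols below 0 are Polr2a and Polr3gl.

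If the shared subunits are set aside, polymerase I keeps 3 genes, of which 3 rose, polymerase II keeps 8, of which 3 rose and 1 fell, and the polymerase III counts stay as they were. If they are counted for every enzyme they serve, 8 of 10 rose for polymerase I, 6 of 13 for polymerase II and 8 of 17 for polymerase III. The table also lists 4 subunits under symbols outside the Polr pattern. Cd3eap and Twistnb, both of polymerase I, rose to log2 fold changes of 0.89 ± 0.07 and 0.52 ± 0.05 (SE), whereas Znrd1 of polymerase I (0.22 ± 0.08, edgeR adjusted p = 0.0608) and Crcp of polymerase III (0.09 ± 0.06, edgeR adjusted p = 0.290) did not pass. Without control replicate 2 Znrd1 passed (edgeR adjusted p = 0.0367).

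Per unit of coding length, the genes named for polymerase II reached the highest levels, but the ranges of the 3 enzymes overlapped. In control libraries the deposited RPKM means ran from 15.1 for Polr2h to 65.5 for Polr2m among polymerase II genes, from 3.31 for Polr1e to 40.4 for Polr1d among polymerase I genes and from 2.03 for Polr3g to 20.9 for Polr3c among polymerase III genes. Polr1d thus lay above most polymerase II genes, and Polr2e and Polr2f, above it at 54.8 and 42.8 RPKM, serve all 3 enzymes. Within the same enzyme the messages were far from equal in level. The largest subunits stood at 10.7 ± 0.68 RPKM for Polr1a, 32.00 ± 1.99 RPKM for Polr2a and 8.91 ± 0.35 RPKM for Polr3a in control cells (mean ± SD, n = 3). After stretch the same means were 12.8 ± 0.72, 24.1 ± 2.70 and 9.95 ± 0.47 RPKM. Polr2a thus remained above Polr1a, and the libraries of these genes did not overlap in either group.

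**Figure D2:**
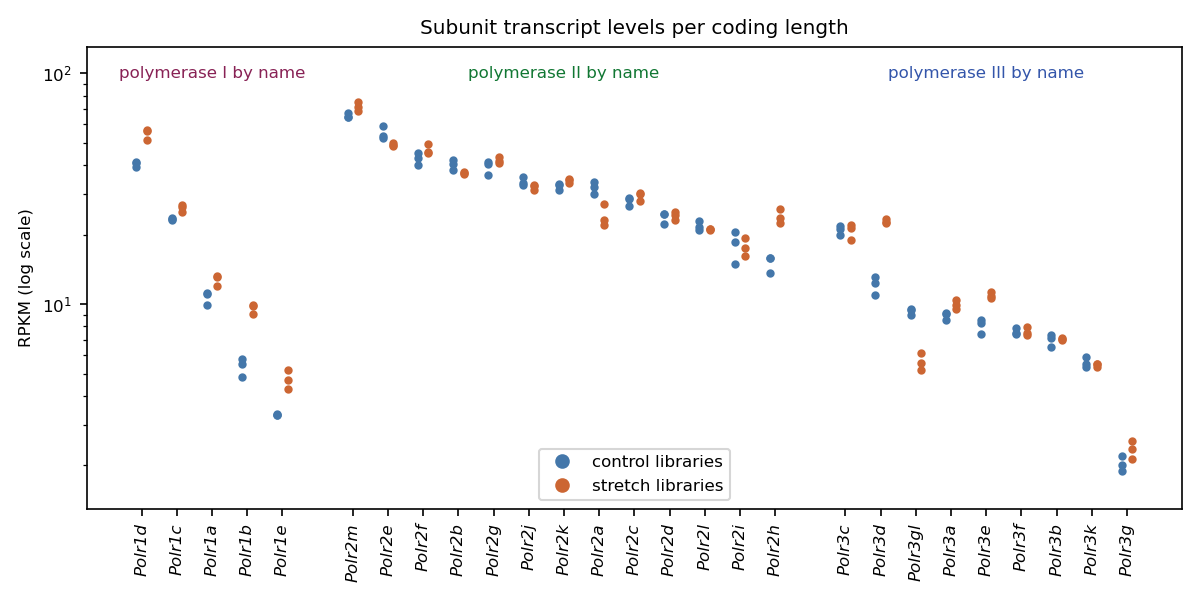
Deposited RPKM per library (vertical axis, log scale) for 27 of the 28 subunit genes, ordered within each enzyme by their control mean; blue points are the 3 control and orange points the 3 stretch libraries. The polymerase II genes lie between 13.6 and 74.9 RPKM, and Polr3g is the lowest gene, at 1.89 to 2.55 RPKM.

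The promoters of 5 genes are shown as examples. Polr1b, Polr1e and Polr3e rose, and Polr3gl, which fell, is shown beside its paralog Polr3g, which did not pass. Each is the stretch of 250 bases before the annotated start, 5′ to 3′ on the gene's strand, from RefSeq on GRCm38.p6, and for Polr3e the last 34 bases are left out because the count table's gene model begins earlier. The positions are chr2:129100746-129100995 (plus strand), chr4:45018359-45018608 (plus), chr7:120917528-120917743 (plus), chr13:81711014-81711263 (minus) and chr3:96594182-96594431 (minus). Capitals mark the GC box GGGCGG, the E-box CACGTG and, in Polr3e, the B box of transfer RNA genes, each searched on both strands, and no marked motif overlaps another.
Polr1b: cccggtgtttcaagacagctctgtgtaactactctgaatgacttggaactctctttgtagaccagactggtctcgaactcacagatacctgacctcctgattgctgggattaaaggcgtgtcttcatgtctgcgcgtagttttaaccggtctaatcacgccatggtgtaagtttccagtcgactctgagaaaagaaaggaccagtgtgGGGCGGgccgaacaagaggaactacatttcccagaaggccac
Polr1e: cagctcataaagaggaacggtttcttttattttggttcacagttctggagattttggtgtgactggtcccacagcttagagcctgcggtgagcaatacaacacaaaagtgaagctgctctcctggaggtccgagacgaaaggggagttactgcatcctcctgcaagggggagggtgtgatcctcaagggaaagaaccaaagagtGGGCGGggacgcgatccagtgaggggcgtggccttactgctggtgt
Polr3e: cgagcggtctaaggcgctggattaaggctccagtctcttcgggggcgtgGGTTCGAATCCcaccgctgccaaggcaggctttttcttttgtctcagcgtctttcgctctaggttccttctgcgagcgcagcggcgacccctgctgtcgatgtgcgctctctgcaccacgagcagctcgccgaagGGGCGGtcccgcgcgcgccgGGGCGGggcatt
Polr3g: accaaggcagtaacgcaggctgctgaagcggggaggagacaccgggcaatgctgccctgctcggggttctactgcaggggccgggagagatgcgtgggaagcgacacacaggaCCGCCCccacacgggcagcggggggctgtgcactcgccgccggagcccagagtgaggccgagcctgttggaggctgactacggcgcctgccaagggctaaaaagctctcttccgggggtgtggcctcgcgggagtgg
Polr3gl: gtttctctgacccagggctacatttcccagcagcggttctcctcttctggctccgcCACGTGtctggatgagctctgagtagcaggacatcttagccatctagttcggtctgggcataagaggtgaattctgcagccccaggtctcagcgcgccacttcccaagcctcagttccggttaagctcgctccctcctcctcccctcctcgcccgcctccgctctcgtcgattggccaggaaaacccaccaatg
The first base of the GC box nearest the start lies 42 bases before the start in Polr1b, 46 in Polr1e and 46 in Polr3e, which has another at 66, all counted from the RefSeq start. The capitals in Polr3g are a GC box on the opposite strand, and those in Polr3gl are an E-box.

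Of the 28 genes 22 had a promoter in the table. A GC box was found in 14 of the 22, against 62.5% of the 9952 tested genes with a promoter and 32.7% of all 32851 promoters. It was found in 6 of the 10 genes called higher that had a promoter and in 8 of the other 12. Polr1a and Polr1d, which rose, had no GC box. An E-box, the motif bound by MYC and MAX, was found in 2, Polr3c and Polr3gl, against 9.71% of tested genes and 6.02% of promoters, and in 0 of the 5 polymerase I genes. The ETS-type motif CCGGAAG was found in 5 of 22 (14.6% of tested genes, 6.91% of promoters), TATAAA in 2 (8.33% and 12.4%) and an NRF1-type motif in 0 (1.81% and 0.782%). The B box, the internal promoter element of transfer RNA genes, was searched after the sequence of Polr3e had been seen, and it occurs in 0.0904% of tested genes and 0.0335% of promoters. In Polr3e it lies inside a leucine transfer RNA gene, n-TLaag4 (chromosome 7, 120917517 to 120917598, 82 bases), which RefSeq places 179 bases before its Polr3e start. Of the 9952 tested genes 4 (0.0402%) have a transfer RNA gene within these 250 bases, so the gene of a polymerase III subunit lies next to a template of polymerase III. The transfer RNA gene ends before the Polr3e gene model of the count table begins.

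The catalytic core of polymerase I rose in both of its subunits. Polr1b, the second-largest subunit (chromosome 2, 129100996 to 129126595), was at 20.7, 24.2 and 22.6 CPM in control replicates 2, 3 and 4 and at 44.1, 39.6 and 44.5 CPM in stretch replicates 1, 2 and 4. Every stretch library was far above every control library. Polr1b rose 1.90-fold (log2 fold change 0.92 ± 0.07, SE; edgeR adjusted p = 7.78e-05). Polr1a, the largest subunit, which holds the catalytic site (chromosome 6, 71909053 to 71979360), was at 64.7, 70.9 and 70.0 CPM in control and at 91.4, 79.5 and 90.2 CPM in stretch libraries. The groups did not overlap, and stretch replicate 2 was the lowest of its group. Its log2 fold change was 0.34 ± 0.07 (edgeR adjusted p = 0.00323).

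The catalytic core of polymerase II did not rise. Polr2a, the largest subunit, whose repeated C-terminal tail coordinates messenger RNA processing (chromosome 11, 69734410 to 69758223), was at 199.9, 205 and 179 CPM in control replicates 2, 3 and 4. In stretch replicates 1, 2 and 4 it was at 144, 171 and 151 CPM, below every control library. Polr2a fell 1.25-fold (log2 fold change -0.33 ± 0.08, edgeR adjusted p = 0.00921). Polr2b, the second-largest subunit (chromosome 5, 77310484 to 77349328), was at 171, 151 and 159.7 CPM in control and at 160.4, 153 and 157 CPM in stretch libraries. The groups overlapped and it did not pass (log2 fold change -0.03 ± 0.05, edgeR adjusted p = 0.648).

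In polymerase III the largest subunit changed a little. Polr3a (chromosome 14, 24448694 to 24487046) was at 42.6, 44.3 and 44.4 CPM in control and at 50.2, 50.5 and 55.1 CPM in stretch libraries. The groups did not overlap (log2 fold change 0.25 ± 0.05, edgeR adjusted p = 0.00563), although the call was lost with library totals as scaling (adjusted p = 0.0505). Polr3b, the second-largest subunit (chromosome 10, 84622437 to 84727178), was at 33.5, 37.0 and 35.5 CPM in control and at 38.0, 37.5 and 38.4 CPM in stretch libraries. It did not pass (0.10 ± 0.05, edgeR adjusted p = 0.137), although its groups did not overlap.

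**Figure D3:**
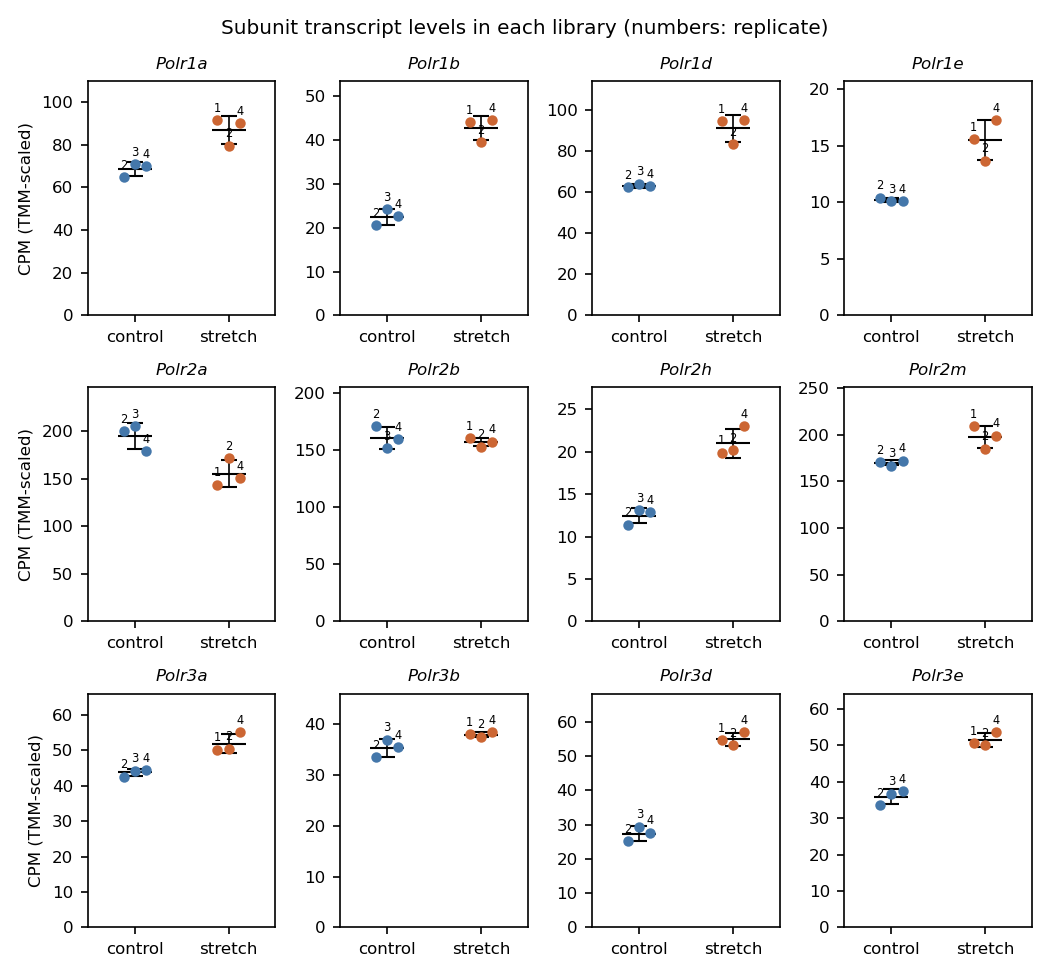
TMM-scaled CPM (vertical axes, from 0) of 12 subunit genes in each library, with the mean and SD of each group as a bar; the small numbers are replicate numbers. Polr1b and Polr3d stand about as high again in the stretch libraries, Polr2a is lower in all 3, and the groups overlap for Polr2b.

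Because each library holds all 3 enzymes, the paralogous catalytic subunits were also compared within libraries. The log2 CPM of Polr1b minus that of Polr2b was -2.83 ± 0.20 in control and -1.88 ± 0.07 in stretch libraries, a rise of 0.96 (mean ± SD, n = 3 in each group; exact permutation p = 0.1, two-sided). Against Polr3b the difference rose by 0.82, from -0.65 ± 0.05 to 0.17 ± 0.08 (n = 3 per group; exact permutation p = 0.1). For Polr1a minus Polr2a it rose by 0.67, from -1.50 ± 0.14 to -0.83 ± 0.24 (n = 3 per group; exact permutation p = 0.1). In these 3 comparisons the groups did not overlap, and 0.1 is the smallest p that 3 libraries against 3 can give. Polr1a minus Polr3a was 0.65 ± 0.04 in control and 0.74 ± 0.11 in stretch libraries, with overlapping groups (n = 3 per group; exact permutation p = 0.3). Adjusted over the 4 comparisons the exact permutation p was 0.133 for the first 3 and 0.3 for the last, so none could pass 0.05 in this design.

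**Figure D4:**
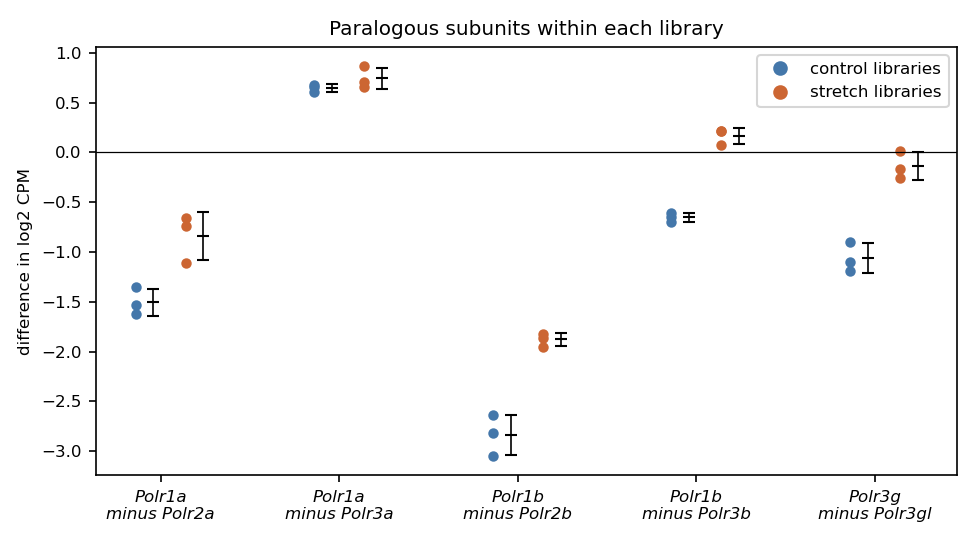
Difference in log2 CPM between paralogous subunits within each library (vertical axis), with control libraries in blue, stretch libraries in orange and mean ± SD bars beside them. The stretch points lie above the control points without overlap for each pair except Polr1a minus Polr3a.

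The assembly platform shared by polymerases I and III rose. Polr1d, its small partner (chromosome 5, 147077541 to 147111359), was at 62.2, 64.0 and 62.8 CPM in control and at 94.6, 83.3 and 94.8 CPM in stretch libraries. This was a 1.44-fold rise without overlap (log2 fold change 0.53 ± 0.06, edgeR adjusted p = 0.000237). Polr1c, the other partner (chromosome 17, 46243920 to 46248045), was at 32.4, 32.2 and 31.6 CPM in control libraries and rose to 36.9, 38.1 and 38.8 CPM with stretch, and its log2 fold change was 0.24 ± 0.05 (edgeR adjusted p = 0.00365). The counterpart pair of polymerase II is Polr2c and Polr2j. Polr2c rose by 0.16 ± 0.05 on the log2 scale (edgeR adjusted p = 0.0253), and Polr2j had 20.9 ± 0.77 CPM in control libraries and 20.95 ± 0.54 CPM with stretch (mean ± SD, n = 3 per group; log2 fold change 0.00 ± 0.06, edgeR adjusted p = 0.979).

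The subunit pairs related to the initiation factor TFIIF rose in polymerases I and III. TFIIF helps polymerase II to open promoters and escape from them, and polymerases I and III carry a similar pair as built-in subunits. This grouping by structural place was made after the values had been seen. In polymerase III the pair is Polr3d and Polr3e. Polr3d (chromosome 14, 70438748 to 70443471) was at 25.1, 29.4 and 27.6 CPM in control and at 54.5, 53.1 and 56.9 CPM in stretch libraries. It rose without overlap (log2 fold change 1.00 ± 0.07, edgeR adjusted p = 4.97e-05), the largest fold change of the 28 genes. Polr3e (chromosome 7, 120917744 to 120947432), whose promoter with the transfer RNA gene is printed above, was at 33.5, 36.8 and 37.5 CPM in control and at 50.6, 50.1 and 53.6 CPM in stretch libraries. The 3 stretch values lay close together above all controls (log2 fold change 0.52 ± 0.06, edgeR adjusted p = 0.000240).

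In polymerase I the pair is Polr1e and Cd3eap. Polr1e (chromosome 4, 45018625 to 45033692) was at 10.4, 10.1 and 10.1 CPM in control and at 15.6, 13.7 and 17.3 CPM in stretch libraries, a 1.52-fold rise without overlap (log2 fold change 0.60 ± 0.09, edgeR adjusted p = 0.00128). Cd3eap stood at 23.5 ± 1.06 CPM in control and 43.4 ± 3.50 CPM with stretch (mean ± SD, n = 3 per group; edgeR adjusted p = 7.46e-05). The genes of TFIIF itself, Gtf2f1 and Gtf2f2, rose with log2 fold changes of 0.20 ± 0.07 and 0.45 ± 0.06 (edgeR adjusted p = 0.0433 and 0.000589). The call of Gtf2f1 was lost without control replicate 2 (edgeR adjusted p = 0.151), control replicate 4 (0.0957), stretch replicate 1 (0.0663) or stretch replicate 4 (0.145).

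**Figure D5:**
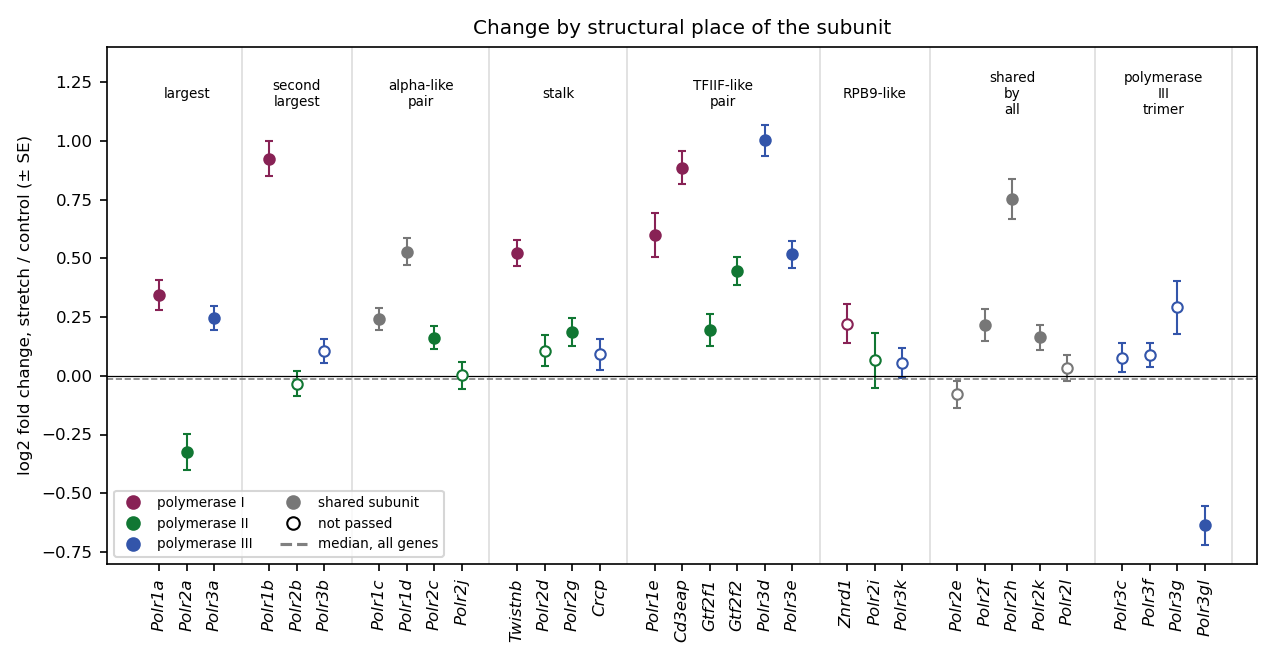
Log2 fold change with SE (vertical axis) of the subunits and of TFIIF, arranged by structural place; colour gives the enzyme, grey a shared subunit, and open symbols did not pass an adjusted p of 0.05. In the TFIIF-like group all 6 symbols are filled and above 0, and the 2 filled symbols below 0 are Polr2a and Polr3gl.

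The 5 subunits common to all 3 enzymes differed among themselves. Polr2h (chromosome 16, 20717826 to 20722265) was at 11.4, 13.1 and 12.9 CPM in control and at 19.9, 20.2 and 23.0 CPM in stretch libraries, and rose 1.69-fold (log2 fold change 0.75 ± 0.09, edgeR adjusted p = 0.000265). It is named for polymerase II, and among the genes so named it alone rose by at least 1.2-fold. Polr2f and Polr2k rose by small amounts (0.22 ± 0.07 and 0.16 ± 0.05, edgeR adjusted p = 0.0310 and 0.0362). Polr2e (58.04 ± 3.74 to 54.98 ± 1.82 CPM) and Polr2l (38.3 ± 1.93 to 39.2 ± 1.07 CPM; mean ± SD, n = 3 per group) did not pass, with log2 fold changes of -0.08 ± 0.06 and 0.03 ± 0.05.

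Among subunits of polymerase II alone, Polr2m, also known as Gdown1, an associated protein that restrains the enzyme until Mediator acts (chromosome 9, 71478437 to 71485983), was at 171, 167 and 172 CPM in control. In stretch libraries it was at 209, 185 and 199 CPM, without overlap (log2 fold change 0.22 ± 0.05, edgeR adjusted p = 0.0101). Its call was lost with library totals as scaling (adjusted p = 0.0579). The stalk subunit Polr2g rose by 0.19 ± 0.06 on the log2 scale (edgeR adjusted p = 0.0324), while its partner Polr2d (chromosome 18) and Polr2i, which takes part in start site choice and proofreading, had log2 fold changes of 0.11 ± 0.07 and 0.07 ± 0.12 and did not pass.

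The calls of Polr2c, Polr2f, Polr2g and Polr2k lay near the threshold and were lost in several of the fits with a library left out. The count of polymerase II genes called higher was 2 without control replicate 2, control replicate 4 or stretch replicate 4, and 3 without stretch replicate 1. Over all such omissions their log2 fold changes were 0.14 to 0.20, 0.17 to 0.27, 0.14 to 0.24 and 0.15 to 0.19, in that order. Fits with fewer libraries also have less power. For Polr2c the edgeR adjusted p was 0.0960 or 0.0667 when control replicate 2 or 4 was left out, and 0.0562 or 0.0830 when stretch replicate 2 or 4 was. For Polr2f it became 0.112 or 0.0862 when control replicate 2 or 4 was left out, and 0.0873 or 0.0647 when stretch replicate 1 or 4 was. For Polr2g leaving out control replicate 2, 3 or 4 gave 0.117, 0.0501 or 0.0501, and leaving out stretch replicate 1 or 4 gave 0.0735 or 0.104. For Polr2k the same omissions gave 0.110, 0.0627 or 0.0925 (controls) and 0.0586 or 0.0988 (stretch). With library totals as scaling these 4 genes also missed the threshold. The 5 polymerase I genes, Polr2a, Polr2h, Polr2m, Polr3a, Polr3d, Polr3e and Polr3gl passed whichever library was left out.

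Polymerase III has a trimer of its own that contacts its initiation factor, made of Polr3c, Polr3f and either Polr3g or its paralog Polr3gl. Polr3g is known for its high level in embryonic stem cells and Polr3gl for its wide expression. Polr3gl (chromosome 3, 96577874 to 96594158) was at 14.1, 13.1 and 13.8 CPM in control and at 8.23, 9.37 and 8.73 CPM in stretch libraries. It fell 1.56-fold without overlap (log2 fold change -0.64 ± 0.08, edgeR adjusted p = 0.000469), the largest decrease of the 28 genes. Polr3g (chromosome 13, 81673837 to 81711013) was at 6.55, 7.04 and 5.9996 CPM in control and at 7.35, 7.82 and 8.80 CPM in stretch libraries. Its groups did not overlap but it did not pass (0.29 ± 0.11, edgeR adjusted p = 0.0656). Within libraries, the log2 CPM of Polr3g minus that of Polr3gl was -1.06 ± 0.15 in control and -0.14 ± 0.14 in stretch libraries. The rise of 0.93 was without overlap (n = 3 in each group; exact permutation p = 0.1, two-sided and the lowest possible), and this pair was chosen after its values had been seen. Per coding length Polr3gl remained the more abundant, at 5.62 ± 0.47 RPKM against 2.34 ± 0.21 RPKM in stretch libraries (mean ± SD, n = 3).

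The other trimer members did not pass: Polr3c had a log2 fold change of 0.08 ± 0.06 and Polr3f of 0.09 ± 0.05. Polr3k, which takes part in cleaving and ending the transcript, had a log2 fold change of 0.05 ± 0.06.

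The hepatocyte markers were highest in stretch replicate 1, and without that library the median log2 fold changes were 0.51 for polymerase I, 0.14 for II and 0.16 for III. The counts called higher were then 5 of 5 for polymerase I, 3 of 13 for II and 3 of 10 for III, where 18.1% of all genes were called higher. The other stretch libraries still held 209 and 219 CPM of hepatocyte markers, above the 101 to 143 CPM of the controls, so that omission does not remove the marker difference. The part of hepatocyte and macrophage transcripts in these results was not tested.

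Exons of 7 of the 28 genes overlap those of another gene of the count table on the opposite strand in GENCODE M21 (GRCm38), among them Polr2b, Polr2c, Polr2f, Polr2h, Polr2i and Polr2j. The sources used here do not say whether counting used strand, and reads there cannot be assigned to either gene with certainty. Of the overlapping genes that rose, Polr2f shares 245 bases with 1700088E04Rik, which also rose (log2 fold change 0.29, edgeR adjusted p = 0.0152). The overlap was 82 bases for Polr2h, with Clcn2 (log2 fold change -0.37, edgeR adjusted p = 0.122), and 953 bases for Polr2c, with Dok4, which fell (log2 fold change -0.58, edgeR adjusted p = 0.000438). None of the polymerase I genes was among the 7.

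Of 8 factors that act with polymerase I in initiation, termination or precursor processing, 4 rose, 1 fell and 3 missed the threshold, with a median log2 fold change of 0.21. These shares were 50.0% higher and 12.5% lower, beside 21.4% and 22.6% of all genes. Rrn3, which links polymerase I to its promoter in growing cells, stood at 73.6 ± 3.51 CPM in control and rose to 91.9 ± 2.65 CPM (mean ± SD, n = 3 each; edgeR adjusted p = 0.00129). Nol11, a nucleolar factor for precursor synthesis and processing, rose 1.46-fold (edgeR adjusted p = 7.98e-05). Ubtf, the architectural factor of ribosomal gene chromatin, fell by 0.15 on the log2 scale (edgeR adjusted p = 0.0421). That call was lost without control replicate 2 (0.118), control replicate 3 (0.132), stretch replicate 1 (0.171) or stretch replicate 2 (0.116), and with RLE factors, no filter, DESeq2 or the replicate number as a block.

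Of 18 polymerase II initiation factors 5 rose (27.8%, near the 21.4% of all genes), 1 fell and 12 missed the threshold (median log2 fold change 0.04). Apart from Gtf2f2 the smallest p was that of Gtf2h1, a TFIIH core subunit (0.32 ± 0.05, edgeR adjusted p = 0.00153). Of 23 elongation factors 9 rose (39.1%), 3 fell (13.04%) and 11 missed the threshold (median 0.09), beside 21.4% and 22.6% of all genes. Leo1, a PAF complex subunit, rose 1.73-fold, and Ell2, which raises elongation speed, rose 2.42-fold, with 23.5 ± 1.19 CPM in control and 57.0 ± 11.3 CPM after stretch (mean ± SD, n = 3 each).

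Among 17 polymerase III factors 6 rose (35.3%, beside 21.4% of all genes), 2 fell (11.8%, beside 22.6%) and 9 missed the threshold (median 0.08). Bdp1, a TFIIIB subunit, rose by 0.44 ± 0.07 (log2; edgeR adjusted p = 0.00113), and Gtf3c1, the B box binding subunit of TFIIIC, fell by 0.38 on the log2 scale (edgeR adjusted p = 0.000297). Brf1, another TFIIIB subunit, missed the threshold (log2 fold change -0.16 ± 0.06, edgeR adjusted p = 0.0565) and met it once control replicate 3 was left out (adjusted p = 0.0447). Maf1, the repressor of polymerase III under nutrient stress, was at 136, 130.5 and 127 CPM in control and at 94.1, 113 and 109.6 CPM in stretch libraries. All 3 stretch values were below the controls (log2 fold change -0.31 ± 0.07, edgeR adjusted p = 0.00720).

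Assembly and import factors, which build the enzymes in the cytoplasm, were called in both directions, with 8 of 17 higher (47.1%, beside 21.4% of all genes), 6 lower (35.3%, beside 22.6%) and 3 that did not pass (median 0.16). Tti2 and the prefoldin subunit Pfdn2 had the smallest p, with log2 fold changes of 0.35 ± 0.05 and 0.44 ± 0.06 (edgeR adjusted p = 0.000591 and 0.000604). Polrmt, the single-subunit polymerase of mitochondria, fell by 0.30 on the log2 scale (edgeR adjusted p = 0.0131), and missed the threshold without control replicate 4 (adjusted p = 0.0517). The other 3 genes of the mitochondrial list did not pass, so 25% of that list was called lower, near the 22.6% of all genes.

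The products of these enzymes were poorly covered. Reads at Rn45s, the entry of the ribosomal precursor made by polymerase I, stood at 32719, 26932 and 19562 CPM in control and at 25063, 30487 and 34346 CPM in stretch libraries. Whether they came from the precursor or from mature ribosomal RNA was not tested. The groups overlapped widely and Rn45s did not pass (log2 fold change 0.18 ± 0.18, edgeR adjusted p = 0.447). Rmrp and Rpph1, made by polymerase III, were at 0.41 ± 0.13 and 1.39 ± 0.07 CPM in control and at 0.44 ± 0.14 and 0.94 ± 0.21 CPM in stretch libraries (mean ± SD, n = 3 per group) and did not pass. Standing levels of such RNAs are not rates of synthesis, and the sources used here do not state how RNA was selected for the kit.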

How the data were processed

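For 6 TruSeq libraries the authors deposited counts of reads for each gene and RPKM values, and the labels gave the groups. TopHat2 (2.1.0), featureCounts, edgeR and the build GRCm38 (mm10) appear in the submitters' processing notes, without saying which tool made which values. Per the file headers the RPKM values rest on a coding length for each gene. Per the file headers, the authors' own comparison gives log2 fold changes, log2 CPM, a likelihood ratio score and, for each gene, a p-value and FDR.

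Counts as deposited went into edgeR 4.0.16 (R 4.3.3) with TMM scaling, filterByExpr and the quasi-likelihood F test, and p-values were adjusted by Benjamini-Hochberg over 14222 genes and called under 0.05. The SE is the log2 fold change over the square root of F, and log2 CPM used a prior count of 2. Differences within libraries were tested by exact two-sided permutation. The main edgeR fit was tested on simulated counts and the permutation test on set values, and the other steps were not tested in this way.

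The genes and lists were chosen with earlier results of these data known. Values per library are given for Polr1a, Polr1b, Polr2a, Polr2b, Polr3a and Polr3b and for up to 4 called genes with the smallest p per enzyme, up to 2 called genes are named per factor list, and Ubtf, Rrn3, Brf1, Maf1 and Polrmt are named whatever their result. Outside this rule, the text also gives Polr1c in each library, whereas Polr2c, which falls within the rule, is given without such values. The values of Polr3g, Gtf2f1, Znrd1 and Crcp were added after they had been seen. Of the 28 genes 1 enters the counts and is not reported here by name. Not found were Pfdn6 and 6 of 12 listed products. Grinl1a, listed among subunits under other symbols, is an older symbol of Polr2m, already among the 28. Other settings tried were RLE and upper-quartile factors, library totals as scaling, 3 other filters, DESeq2 1.42.0, limma-voom (limma 3.58.1), the edgeR exact test, robust dispersion, glmTreat at 1.2-fold, the replicate number as a block, other assignments of shared subunits, a prior count of 0.5, log2 RPKM, and each library left out.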

Additional observations from a re-analysis of the deposited data

How the results depend on the processing

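Of the 28 genes, all 28 kept direction and side of the threshold with RLE factors, a minimum of 10 reads or of 1 CPM in 3 libraries, DESeq2, limma-voom and robust dispersion. With library totals as scaling, 1 polymerase II gene was called higher and 2 lower. Against a minimum fold of 1.2 (glmTreat), 3 polymerase I, 1 polymerase II and 2 polymerase III genes were called higher. For polymerase II 0 genes and for polymerase III 1 gene were called lower. Of all genes tested, 1210 (8.51%) were higher and 1327 lower. Among the 9 subunit genes that lost their call were Polr1a, Polr1c and Polr2a (glmTreat adjusted p = 0.154, 0.767 and 0.265). With shared subunits left out, the counts called higher were 3 for polymerase I and 3 for II, and with shared subunits counted for each enzyme they were 8 for polymerase I and 8 for III. Leaving out each library in turn gave 5 to 5 polymerase I genes, 2 to 5 polymerase II genes and 3 to 4 polymerase III genes called higher. Across these omissions 16.2% to 20.9% of all genes tested were called higher.

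Signs changed only for genes that did not pass. With library totals as scaling the log2 fold change was -0.028 for Polr2i, -0.090 for Polr2j, -0.059 for Polr2l, -0.014 for Polr3c, -0.0027 for Polr3f, -0.038 for Polr3k and -0.0011 for Crcp, and with upper-quartile factors -0.0095 for Polr2j. With each library left out it ranged from -0.074 to 0.013 for Polr2b, from -0.044 to 0.16 for Polr2i, from -0.019 to 0.032 for Polr2j and from -0.0041 to 0.069 for Polr2l. The cause was not tested.

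Replicate numbers 2 and 4 occur in both groups. Same-numbered libraries deviated from their group means with correlations across genes of 0.21 and 0.11. The differently numbered pair of control 3 and stretch 1 had 0.18, and the other differently numbered pairs lay between -0.20 and 0.02. Deviations from a group mean sum to 0 within each group, so these correlations depend on one another, and pairing was not tested. No label says that the numbers pair the libraries. With the number as a block, 5568 genes were called, 2713 of them higher (19.1% of all genes tested). In that fit 5, 4 and 4 genes of polymerases I, II and III were called higher. Polr2k (edgeR adjusted p = 0.0797) and Polr2m (0.0531) were then not called. Libraries were deep enough that the least abundant of the 28 genes, Polr3g, had 321 to 531 counts.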

Other observations

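Of the 16 called polymerase subunit genes, 12 had stretch replicate 2 as the stretch library nearest to the control mean on the log2 CPM scale, 4 had stretch replicate 1 and 0 had stretch replicate 4. Over the 6261 called genes of the whole table the shares were 58.1%, 20.2% and 21.7%.

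The 4 genes called here and not in the authors' deposited table were Polr2c, Polr2f, Polr2g and Polr2k, with FDR values there of 0.0570, 0.0537, 0.0531 and 0.135.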
